A study of Sus scrofa with 48 samples.

Results

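The difference between pigs of the low and the high residual feed intake (RFI) line was examined in subcutaneous adipose tissue (SCAT) when both lines received the high-fat, high-fiber (HF) diet. The samples were chosen by their titles: 12 arrays of low RFI pigs (HF_RFIneg) and 12 arrays of high RFI pigs (HF_RFIpl), 24 of the 48 arrays of the series. All pigs were castrated males of the Large White breed from a divergent selection on RFI, and the labels give an age of 132 days. The HF diet contained rapeseed and soybean oils and crushed wheat straw. The other 24 arrays came from low RFI and high RFI pigs (12 each) on a low-fat, low-fiber (LF) diet rich in starch. Each array carried the RNA of 1 pig, sampled from the dorsal fat at the last rib, and was read in a single colour. Lines are populations and not engineered genotypes, so that any allele that drifted or was selected apart can differ between them.

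RFI is what remains of an animal's feed intake once the intake predicted for its growth and maintenance is subtracted, so that pigs with a low RFI are the more feed-efficient. SCAT stores triglycerides in adipocytes, which take up fatty acids, build them from glucose, and release them by lipolysis. It also holds preadipocytes, fibroblasts, vessels and macrophages, and its RNA is a mixture of all of them.

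Of the 21 adipocyte markers kept by the filter on dim probes, 19 were well above background on all 24 HF arrays. *ADIPOQ*, *LEP* and *FABP4* were on the list. The filter itself asks for such signal, and all 14 kept preadipocyte and fibroblast markers had it too. The SCAT label was thus not tested by this count. Between 62.2% and 81.9% of the probes of an HF array were well above background. This share was 75.3% ± 4.03 (SD, n = 12) in low RFI and 73.1% ± 4.79 (SD, n = 12) in high RFI pigs, a difference of 2.26 percentage points (two-sided permutation test, p = 0.228). That test did not use the layout in half-slides given below, and the share was not tested within half-slides. The arrays were run on 6 slides of 8 positions and scanned on 2 dates, with 2 arrays of each group on every slide. Each of the 12 replicate numbers was a half-slide, positions 1 to 4 or 5 to 8 of 1 slide, that held 1 array of each of the 4 groups. Positions were shared unequally: 4 low RFI and 1 high RFI array of the HF diet lay at position 1, and 0 and 3 at position 2. The high RFI replicate 7 had the lowest median correlation with the other HF arrays (0.977). Values are log2 signals minus the median of the array, and a difference of lines is always low RFI minus high RFI, so that a positive value is a higher level in the efficient pigs.

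How many transcripts were called between the lines under the HF diet depended on the fit. Leaving out each HF array in turn gave 2 to 45 probes, array weights 46, and array position as a block 0. The count also depended on whether the half-slide was in the fit. Without it, of 44356 probes kept, 5 (0.0113%) met the cut-offs of raw p under 0.01, fold change over 1.1 and Benjamini-Hochberg (BH) adjusted p under 0.08, 4 (0.00902%) being higher and 1 (0.00225%) lower in low RFI pigs. At a raw p under 0.05, without adjustment, there were 2226 probes (5.02%). The 5 calls were probes for *SLC48A1*, which encodes a heme transporter of endosomes and lysosomes, and *RPAP3*, which encodes a co-chaperone of HSP90 in the assembly of protein complexes, and 3 probes without a gene name. The call lower in low RFI pigs, A_72_P751297, was kept only through the high RFI groups and is no support. Among 11115 genes, each represented by its brightest probe, *SLC48A1* was the only DEG in that fit (0.00900%), with an adjusted p of 0.00875 by limma. With the half-slide as a block, 63 probes (0.142%) were called, the 5 above among them, and 17 genes (0.153%), 14 (0.126%) with a higher and 3 (0.0270%) with a lower level in the low RFI line. Of these 17, 11 are described below, *SLC48A1* included, and the other 6, named after their values were seen, were *ABCF1*, *AMIGO2*, *C7ORF29*, *DHX33*, *MRPL15* and *PRKRIR*, with differences from 0.25 to 0.62. Among the 14 higher, *UNC45B* was kept only through the low RFI groups, where it is the higher. *C14ORF101* and *TMEM260*, also among the 14, are names of the same gene. The values that follow are from the fit without the block unless it is named. A raw p under 0.05 was reached by 522 genes (4.70%), of which 338 (3.04%) had a higher level in the low RFI line and 184 (1.66%) a lower one, and a raw p under 0.01 by 157 genes (1.41%). For no gene and no probe were the 12 values of each line fully apart (0%). In a mixed tissue, fewer cells of a type and less RNA per cell cannot be told apart.

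The 60-base probes of the 5 calls are shown because 3 of them have no gene name and their sequence is their identity. Capitals mark the bases that 2 called probes share over an overlap found by ungapped alignment.
SLC48A1 probe O12489: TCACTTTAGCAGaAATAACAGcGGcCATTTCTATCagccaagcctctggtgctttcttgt
Unnamed probe A_72_P139996: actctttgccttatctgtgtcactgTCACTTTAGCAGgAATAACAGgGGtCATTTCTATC
RPAP3 probe A_72_P203367: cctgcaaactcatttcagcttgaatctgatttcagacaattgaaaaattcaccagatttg
Unnamed probe A_72_P305509: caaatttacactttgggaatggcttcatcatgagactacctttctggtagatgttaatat
Unnamed probe A_72_P751297: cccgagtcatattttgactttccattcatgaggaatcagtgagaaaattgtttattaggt
The first 35 bases of the *SLC48A1* probe and the last 35 bases of probe A_72_P139996 were the same at 32 positions. The 3 differences, counted from the 5′ end of the *SLC48A1* probe with its base first, were A13G, C22G and C25T. No other probe of the array matched either of them with an alignment score of 20 or more (1 per match, -2 per mismatch), on either strand. Both probes have the shared bases in the same orientation.

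*SLC48A1* ranged from 2.39 to 3.95 (median 3.13) in the 12 low RFI pigs and from 1.96 to 2.80 (median 2.28) in the 12 high RFI pigs on the HF diet. All 12 low RFI pigs were above the mean of the high RFI group, and no high RFI pig reached the mean of the low RFI group, although the ranges overlapped. Within the half-slides, the low RFI pig was above the high RFI pig in 11 of 12, by a median of 0.89 (range -0.05 to 1.74). The difference was 0.80 ± 0.14 (SE), a 1.74-fold higher signal in low RFI pigs. On the first scan date alone it was 0.86 and on the second 0.74, neither of which passed the cut-offs with 6 pigs per group. The probe with the shared bases, A_72_P139996, ranged from 3.26 to 4.88 (median 4.16) in low RFI and from 3.06 to 3.98 (median 3.39) in high RFI pigs. Its difference of 0.75 ± 0.14 (SE) had an adjusted p of 0.0473 by limma over all probes. This call was lost with median signals (adjusted p = 0.0845) and with no filter on dim probes (0.117). The *SLC48A1* probe was called in all 24 fits that left out 1 HF array, and A_72_P139996 in 16 of them. It was lost without the low RFI replicate 1, 4, 5 or 10, or the high RFI replicate 3, 5, 8 or 11. The *SLC48A1* probe was the sole kept probe under the name of this gene. Whether A_72_P139996 reads the same transcript was not tested, in which case 2 of the 5 calls would be of 1 transcript.

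*RPAP3* was read by a pair of probes. The called probe ranged from 0.36 to 1.05 (median 0.70) in low RFI and from 0.17 to 0.60 (median 0.36) in high RFI pigs, a difference of 0.35 ± 0.07 (SE) with an adjusted p of 0.0468 by limma. All 12 low RFI pigs exceeded the high RFI mean. The brighter probe of *RPAP3*, which stood for the gene, gave 0.24 ± 0.07 (SE) and an adjusted p of 0.409 by limma over genes. Both probes thus had a higher mean in low RFI pigs, and the gene was not called by its representative. The call of the probe was kept in 16 of the 24 fits that left out 1 HF array and lost without the low RFI replicate 1, 4, 5, 6 or 10, or the high RFI replicate 5, 8 or 11. It was also lost with only the HF arrays in the fit (adjusted p = 0.123 by limma), with normexp background correction (0.126), with median signals (0.173), in the deposited table (0.131) and with no filter on dim probes (0.150).

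The unnamed probe A_72_P305509 ranged from 1.13 to 2.07 (median 1.60) in low RFI and from 0.41 to 1.62 (median 0.60) in high RFI pigs. The groups overlapped through 2 high RFI pigs, which lay within the range of the low RFI pigs, and the other 10 lay below it. The difference was 0.84 ± 0.14 (SE), 1.80-fold, with an adjusted p of 0.0173 by limma, and it was called in all 24 fits that left out 1 HF array. The probe lower in low RFI pigs, A_72_P751297, is described in the array files as a homolog of C6orf106. It ranged from -5.44 to -3.54 (median -4.63) in low RFI and from -4.61 to -3.17 (median -3.58) in high RFI pigs, a difference of -0.92 ± 0.18 (SE) with an adjusted p of 0.0474 by limma. It was dim: the probe was well above background on 3 low RFI and 9 high RFI arrays under HF, and on 7 and 12 under LF. It thus passed the filter on dim probes only through the high RFI groups, where it is the higher, so that its difference is given as a value and not as support. The difference was -0.23 with normexp background correction and -0.34 with median signals, and not called in either. It was called in 11 of the 24 fits that left out 1 HF array, and lost without the low RFI replicate 1, 2, 3, 4, 5, 6 or 10, or the high RFI replicate 2, 3, 5, 6, 8 or 11.

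With array position as a block, none of the 5 probes was called (adjusted p from 0.212 to 0.340 by limma; 1805 probes at a raw p under 0.05). Their differences were then 0.81 for *SLC48A1*, 0.76 for A_72_P139996, 0.72 for A_72_P305509, 0.29 for *RPAP3* and -0.94 for A_72_P751297, all with the sign given above. Over genes, *SLC48A1* was still called in that fit, with an adjusted p of 0.0697 by limma. With half-slide and position both as blocks, a fit added after seeing the data, 4 probes were called, those of *SLC48A1* (adjusted p 0.00305 by limma) and A_72_P139996 among them, and the other 3 of the 5 were not (0.0909 to 0.113). Over genes, 5 were called in that fit, all higher in low RFI pigs, *SLC48A1*, *C14ORF101* and *PCIF1* among them. The part of position in these values was not tested.

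**Figure D1:**
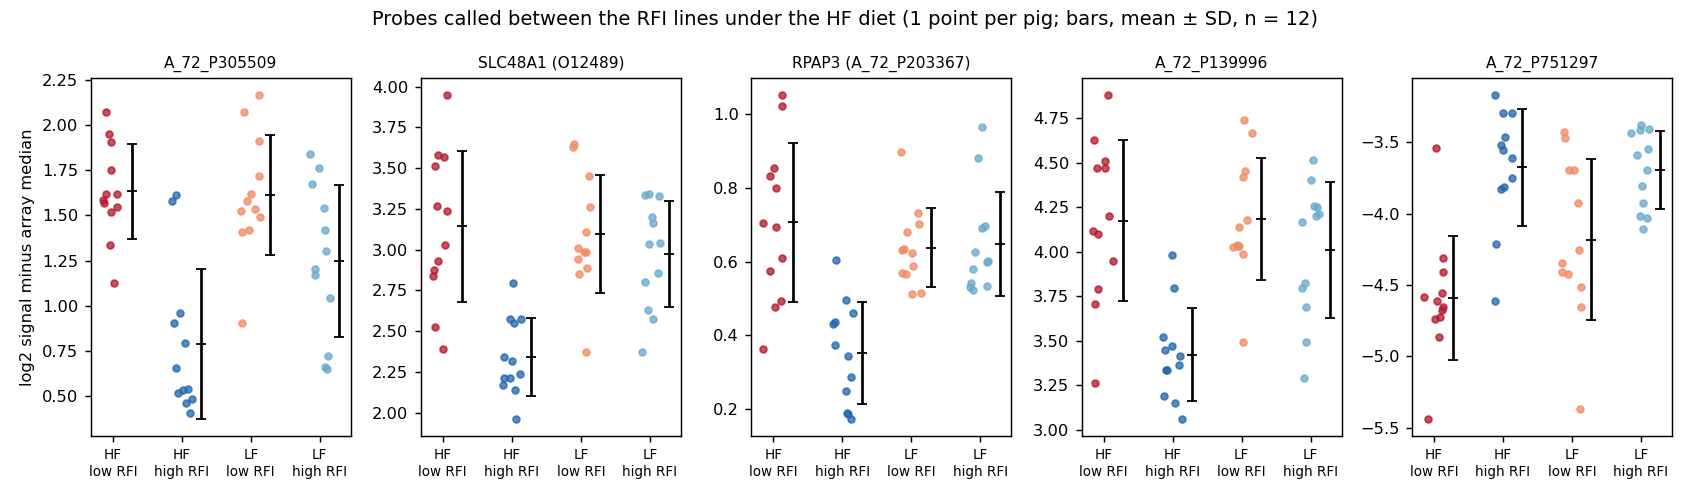
The log2 signal minus the array median is plotted for each pig in the 4 groups of diet and line, for the 5 probes called between lines under the HF diet; bars are the mean ± SD of 12 pigs. In the first 4 panels the HF high RFI pigs have the lowest mean, and for SLC48A1 they lie between 1.96 and 2.80 while the means of the other groups are 2.97 to 3.14. For A_72_P305509 the LF high RFI mean, 1.25, also lies below the LF low RFI mean, 1.61.

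The LF pigs showed where each line stood on the other diet. The mean level of *SLC48A1* under the HF diet was 3.14 ± 0.46 (SD, n = 12) in the low and 2.34 ± 0.24 in the high RFI line. Under the LF diet it was 3.09 ± 0.36 in the low and 2.97 ± 0.33 in the high RFI line. The called *RPAP3* probe had means of 0.71 (low RFI) and 0.35 (high RFI) under HF, and of 0.64 and 0.65 under LF. In both genes the HF high RFI pigs had the lowest mean of the 4 groups. Both genes were picked by their line difference under HF, so that a smaller difference under LF can come from that choice. The line difference of *SLC48A1* was 0.12 ± 0.14 (SE) under the LF diet, and the difference between diets was 0.68 ± 0.20 (SE), with a raw p of 0.00133 and an adjusted p of 0.99996 by limma over genes. That of the *RPAP3* probe was 0.36 ± 0.10 (SE), raw p 0.000367 and adjusted p 0.99998 by limma over probes. The change of the line difference with diet was thus not called for either gene, nor for any of the 11115 genes (0 called, 99, or 0.891%, at a raw p under 0.05). The unnamed called probes differed by line under LF by 0.36 ± 0.14 (SE, A_72_P305509), 0.17 ± 0.14 (A_72_P139996) and -0.49 ± 0.18 (A_72_P751297).

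In the pig gene table of assembly Sscrofa11.1, *SLC48A1* and *RPAP3* lie close together on chromosome 5 with 3 genes between them. Of those 3, *RAPGEF3*, a cAMP-activated exchange factor, was the one measured, and it gave -0.13 ± 0.11 (SE). *AMIGO2*, an adhesion molecule and the nearest measured gene beyond *RPAP3*, gave 0.46 ± 0.14 (SE) with a raw p of 0.00196 and an adjusted p of 0.535 by limma, and was called with the half-slide as a block (0.0479). Beyond *SLC48A1*, *HDAC7*, a histone deacetylase, gave -0.01 ± 0.18 (SE) and *TMEM106C* gave -0.07 ± 0.10 (SE). The positive values were thus not shared by all neighbours. These neighbours were chosen for their place and *AMIGO2* was looked at after the calls were known.

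**Figure D2:**
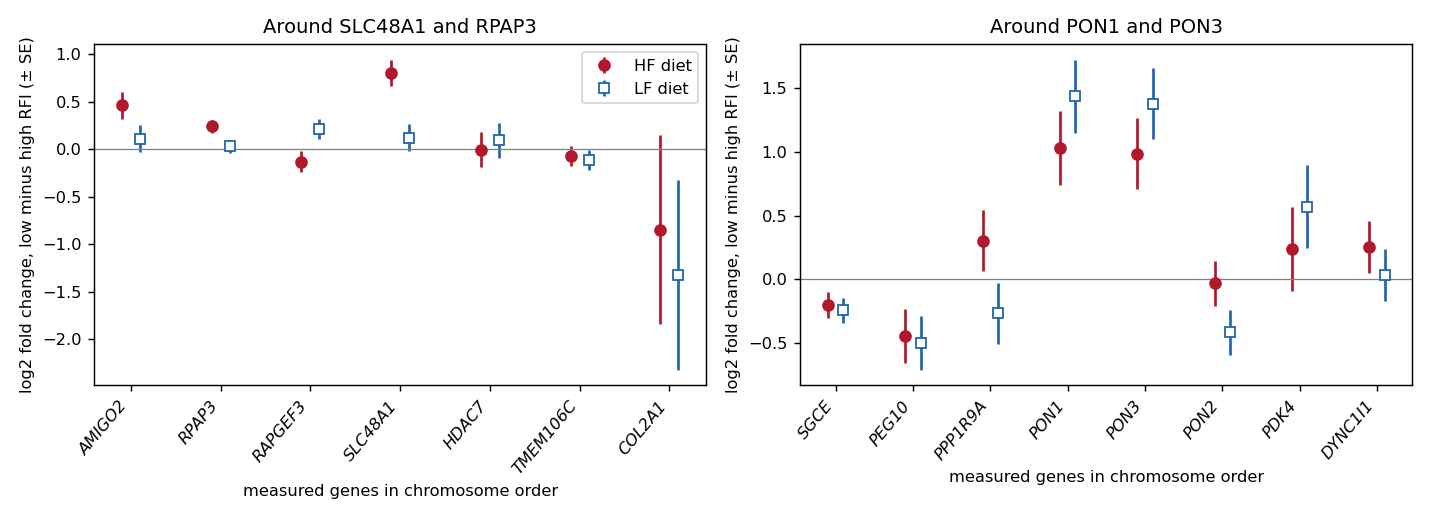
The line difference (log2 fold change, low minus high RFI, ± SE) under the HF diet (filled circles) and the LF diet (open squares) is shown for the measured genes around SLC48A1 and RPAP3 on chromosome 5 and around PON1 and PON3 on chromosome 9, in chromosome order. AMIGO2, RPAP3 and SLC48A1 have values of 0.46, 0.24 and 0.80 under HF and at most 0.12 under LF, whereas the brighter PON1 probe and PON3 are positive under both diets; the second PON1 probe (-0.77 under HF) is not drawn.

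Beside *SLC48A1*, the 11 gene symbols with the smallest raw p among those higher in low RFI pigs were not called, with adjusted p from 0.0817 upwards. Of these, *C14ORF101*, *TMEM260* and *TFB1M* were called with slide as a block (adjusted p 0.0443 by limma for each), with scan date as a block (0.0406) and with the half-slide as a block (0.0479). The latter also called *SLC45A2* (0.0479), *TRIM25* and *UNC45B* (0.0529 each) and *PCIF1* (0.0706). With position added to the half-slide, only *C14ORF101* (0.0741) and *PCIF1* (0.0720) of these were still called. Over 24 alternatives, *C14ORF101* was called in 13 and *TMEM260* and *TFB1M* in 6 each. The nearest to the threshold was *C14ORF101*, an older name of *TMEM260*, at 0.32 ± 0.07 (SE). The array holds this gene under both names, and the probe under the name *TMEM260*, which encodes an O-mannosyltransferase, gave 0.33 ± 0.07 (SE). The other probes did not all follow: the second *C14ORF101* probe gave 0.28 and the remaining *TMEM260* probes 0.03 and -0.05. *TFB1M*, a methyltransferase of mitochondrial ribosomal RNA, gave 0.41 ± 0.09 (SE), and its other probes 0.32 and 0.25. *PCIF1*, a methyltransferase of the mRNA cap, gave 0.54 ± 0.13 (SE). A second probe with the same 60 bases gave 0.58, whereas another probe of different sequence gave -0.09.

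*TRAF6*, a ubiquitin ligase that relays signals of Toll-like and interleukin-1 receptors, ranged from 2.74 to 3.79 (median 3.51) in low RFI pigs and from 0.93 to 3.64 (median 2.09) in high RFI pigs. The low RFI pigs were uniformly high, whereas the high RFI pigs were spread over the whole range. Its difference was 1.14 ± 0.28 (SE; adjusted p 0.237 by limma), but a second *TRAF6* probe gave 0.19. *TRIM25*, a ubiquitin ligase of RIG-I signalling, gave 0.59 ± 0.14 (SE). *PTPLA*, now HACD1, an enzyme of very long chain fatty acid elongation, gave 0.58 ± 0.14 (SE). *PIGL*, an enzyme of GPI anchor synthesis, gave 0.51 ± 0.13 (SE), and *SLC45A2*, a transporter of melanosomes, gave 0.65 ± 0.16 (SE). *HEATR4* gave 0.46 ± 0.12 (SE).

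*UNC45B*, a myosin chaperone of striated muscle, ranged from -4.65 to -0.10 (median -2.94) in low RFI and from -5.93 to -3.11 (median -4.81) in high RFI pigs, a difference of 1.92 ± 0.49 (SE; adjusted p 0.240 by limma). It was well above background on 11 low RFI and 6 high RFI arrays under HF, and on 9 and 5 under LF. It thus passed the filter on dim probes only through the low RFI groups, where it is the higher, so that its difference too is given as a value only. Of the 25 measured skeletal muscle markers, *UNC45B* and *MYH2* passed the filter through 1 line only. The mean level of the other 23 was -0.09 ± 0.44 (SD, n = 12; range -0.50 to 1.13) in low RFI and -0.26 ± 0.22 (range -0.53 to 0.08) in high RFI pigs, and 20 of the 23 had a positive difference. The low RFI replicate 8 had the highest level of these markers, and without it 14 of the 23 were positive. On that array *UNC45B* was at -4.03, and without it the difference of *UNC45B* was 2.03 ± 0.50 (SE). The part of muscle RNA in the value of *UNC45B* was not tested.

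In the fit of the 4 group means no gene was called lower in low RFI pigs. With the half-slide as a block, *OAZ3* (adjusted p 0.0479 by limma), *NHEJ1* (0.0533) and *WDHD1* (0.0726) were, but none with position added to that block, and 5 genes were on the first scan date alone and 1 with array weights. Without a block the 12 genes with the smallest raw p in this direction had adjusted p of 0.226 to 0.535 by limma. *OAZ3*, an antizyme that inhibits polyamine synthesis and is known from testis, ranged from -1.14 to 1.41 (median -0.62) in low RFI and from -0.82 to 2.09 (median 1.61) in high RFI pigs. Thus 11 of 12 high RFI pigs exceeded the low RFI mean and 1 of 12 low RFI pigs exceeded the high RFI mean. Its difference was -1.51 ± 0.36 (SE), and its other probes gave -1.48, from the same 60 bases, and -1.06.

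*WDHD1* and *DIAPH3*, acting in DNA replication and in actin assembly at cell division, gave -0.81 ± 0.22 and -0.83 ± 0.24 (SE). Of the other *WDHD1* probes, one gave -0.68 and the other -0.12. *NHEJ1*, a factor of DNA end joining, gave -0.40 ± 0.11 (SE), and its 3 other probes lay between -0.38 and -0.36. *ENPP6*, a choline phosphodiesterase, gave -0.92 ± 0.25 (SE), with -0.86 and -0.61 for its other probes. *ZPBP*, a sperm protein that binds the zona pellucida, gave -0.75 ± 0.23 (SE), with -0.77 for each of 2 probes of the same 60 bases and -0.36 for a probe of different sequence, and *FOLH1B*, a folate hydrolase, gave -0.52 ± 0.16 (SE). *FAM103A1*, *RAI14*, *ACSBG1*, *CTNNBL1* and *CSE1L* completed the 12 genes with differences from -0.52 to -0.19, although the 4 other probes of *RAI14* lay between -0.18 and 0.04. The 24 symbols so described stand for 23 genes, as *C14ORF101* is *TMEM260*. Of the 24 probes, 23 were well above background on all 24 HF arrays.

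The LF pigs were different animals and shared no array with the HF pigs, so that they gave a second reading of each line difference. Leaving out *UNC45B*, which passed the filter through 1 line only, all 23 other symbols had the same sign under the LF diet, and 13 of them had a raw p under 0.05 there. Of all 11115 genes, 712 had a raw p under 0.05 under LF. The symbols *C14ORF101* and *TMEM260* are names of the same gene, which is thus counted more than once. Among the 522 genes with a raw p under 0.05 under the HF diet, 466 (89.3%) had the same sign under the LF diet, as against 7274 of all 11115 genes (65.4%). Without the 169 genes that passed the filter through 1 line only, it was 458 of 510 (89.8%) as against 7174 of 10946 (65.5%). Across genes, which are not independent replicates, the differences under both diets had a Pearson r of 0.51. Positions were shared unequally between lines under LF too, with 0 low RFI and 4 high RFI arrays at position 4. With array position as a block, the share was 68.0% (278 of 409 genes), as against 53.7% of all genes, and r was 0.19. The 23 symbols other than *UNC45B* had the same sign under both diets in that fit as well, 9 of them with a raw p under 0.05 under LF. In the same fit, 503 of all 11115 genes had such a raw p under LF. The part of position in this agreement was not tested. Among the 24 symbols, *TRIM25*, *PTPLA* and *FOLH1B* changed least with diet, with values of 0.61, 0.60 and -0.52 under the LF diet. *SLC48A1*, and *TMEM260* with its older name *C14ORF101*, had the smallest raw p of the difference between diets among these 24, with LF values of 0.12, 0.06 and 0.10.

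The LF contrast called 7 genes (0.0630%), and all 7 had the same sign under the HF diet without being called there. Of all 11115 genes, 65.4% had the same sign under both diets. None was called with array position as a block or with the unmoderated analysis of variance, and the deposited table gave 2 calls. *PON1* and *PON3*, which encode antioxidant lactonases carried on lipoproteins, gave 1.03 ± 0.29 and 0.98 ± 0.28 (SE) under HF and 1.44 and 1.38 under LF. These genes are adjacent on chromosome 9. The 4 probes of *PON3* lay between 0.98 and 1.20 under HF, whereas the second, dimmer probe of *PON1* gave the opposite sign under both diets, -0.77 under HF and -1.76 under LF (raw p 0.000536 by limma). The direction of *PON1* thus rests on its brighter probe. *PLIN2*, a lipid droplet coat protein, gave 0.58 ± 0.21 (SE) under HF and 0.995 under LF. *HEATR4* and *WDHD1* were called under LF as well, and *ARL2BP* and *HELQ* gave 0.25 and -0.21 under HF.

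**Figure D3:**
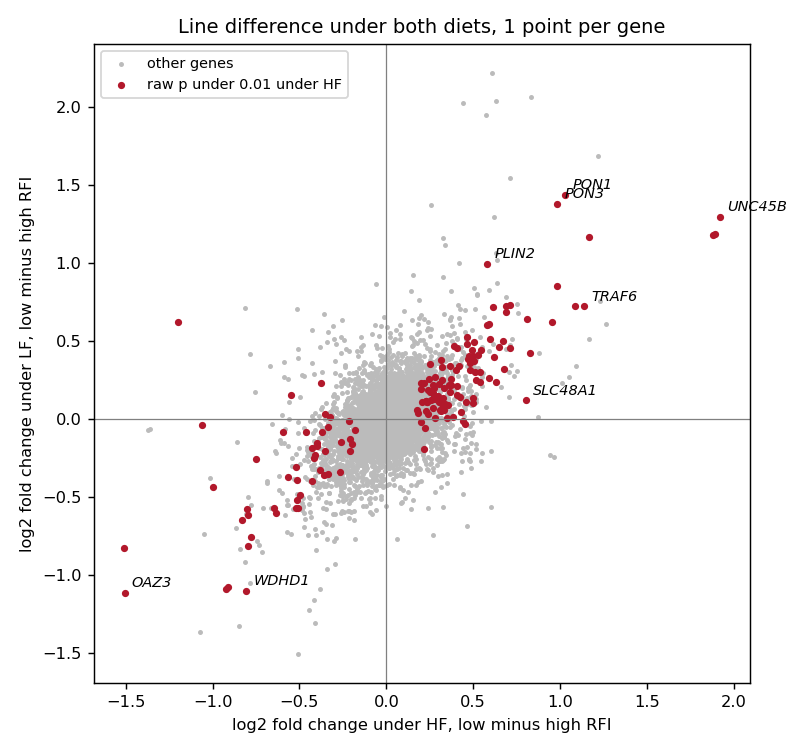
Each point is 1 of 11115 genes, with its line difference (log2 fold change, low minus high RFI) under the HF diet on the horizontal axis and under the LF diet on the vertical axis; red points have a raw p under 0.01 under HF. Of those 157 genes, 147 have the same sign under both diets, and SLC48A1 lies close to the horizontal axis.

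None of the 37 gene lists held a called member (with the half-slide as a block, *OAZ3*, *WDHD1* and *UNC45B* were), so that each is given by its median and by its members with a raw p under 0.05, to be read against the 4.70% of all genes, their median of 0.02 and the 59.8% of them (6647 of 11115) with a positive difference. Lists of lipid use had positive medians, as had the 21 adipocyte markers (0.10, 17 positive); the part of adipocyte RNA in them was not tested. Lipolysis and lipid droplet proteins had a median of 0.11, with 14 of 15 members positive and *PLIN2* and *MGLL*, the monoglyceride lipase (0.35 ± 0.16, SE), at a raw p under 0.05. Fatty acid oxidation had a median of 0.11 with 24 of 30 members positive and 3 at a raw p under 0.05. *ACADVL* and *HADH*, which encode dehydrogenases of the β-oxidation spiral, gave 0.25 ± 0.11 and 0.30 ± 0.13 (SE). Fatty acid uptake and trafficking had a median of 0.06, with the transporters *SLC27A1* and *SLC27A6* at 0.16 ± 0.07 and 0.32 ± 0.14 (SE).

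No member of fatty acid synthesis and desaturation (16 genes, median 0.05) had a raw p under 0.05: the citrate carrier *SLC25A1* gave 0.33 ± 0.24 and the elongase *ELOVL6* -0.33 ± 0.24 (SE). The same held for NADPH supply (11 genes, median 0.07), where *PGD* and *PGLS* of the pentose phosphate pathway gave 0.21 ± 0.14 and 0.13 ± 0.09 (SE). In triglyceride synthesis (17 genes, median 0.06) the mitochondrial *PCK2* gave -0.33 ± 0.12 and *GPD1* 0.15 ± 0.08 (SE). In cholesterol synthesis and uptake (19 genes, median 0.06) the sterol carrier *STARD4* gave -0.42 ± 0.19 and *MVK* -0.36 ± 0.30 (SE).

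Carbohydrate and mitochondrial lists held few genes with a low raw p. *ENO3* and *LDHB* gave 0.56 ± 0.26 and 0.11 ± 0.07 (SE) among 23 glycolytic genes (median 0.09). *ENO3* is the muscle enolase; it was highest (3.24) on the low RFI array with the most muscle marker signal, against a median of 1.05 in that group, and gave 0.36 ± 0.23 (SE) without this array. The part of muscle RNA in its value was not tested. Among 27 genes of pyruvate dehydrogenase and the citric acid cycle (median 0.05), the kinase *PDK1*, which inhibits pyruvate dehydrogenase, gave 0.36 ± 0.10 and the succinyl-CoA ligase subunit *SUCLA2* 0.53 ± 0.15 (SE). The other 25 members had a raw p of 0.05 or more. Branched-chain amino acid catabolism (18 genes, median 0.10) was led by *ACAD8* and *DBT* at 0.26 ± 0.13 and 0.20 ± 0.13 (SE). Of 52 subunits of oxidative phosphorylation (median 0.03), none had a raw p under 0.05, and the whole list ranged from -0.13 to 0.15, with *NDUFB7* and *NDUFB11* at -0.13 ± 0.09 and 0.12 ± 0.09 (SE).

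Enzymes that detoxify lipid and aldehyde products were drawn up with earlier results of these pigs known, so that their count is no support for a direction. Of 22 paraoxonases, carboxylesterases and aldehyde dehydrogenases (median 0.14), 6 (27.3%) were positive with a raw p under 0.05, the adjacent *PON1* and *PON3* among them. *CES1* and *CES3*, named after their values were seen, gave 1.89 and 1.88, and as close paralogs they may share signal. Neither was called, with or without the half-slide as a block, and both had a larger raw p than *PON1* and *PON3*. Among 36 antioxidant enzymes (median 0.05), 5 positive and 1 negative member had a raw p under 0.05. The mitochondrial superoxide dismutase *SOD2* gave 0.37 ± 0.11 and catalase, *CAT*, 0.27 ± 0.08 (SE). In steroid conversion (19 genes, median 0.07), *SRD5A2*, which reduces testosterone, gave 0.71 ± 0.24 and *HSD11B1*, which regenerates cortisol, -0.45 ± 0.21 (SE). Among 14 polyamine genes (median 0.02), *ARG2* gave -0.21 ± 0.15 (SE) beside *OAZ3*.

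Signalling and protein lists showed few low raw p. Among insulin receptor to AKT genes (21 genes, median -0.02), the receptor gene *INSR* gave 0.13 ± 0.10 (SE). In the growth hormone and IGF axis (18 genes, median 0.02), *STAT5A* and *STAT5B* gave 0.21 ± 0.09 and 0.19 ± 0.10 (SE). In adrenergic and cAMP signalling (20 genes, median 0.08), *PRKAR1A* and *ADRA1A* gave 0.23 ± 0.09 and 0.32 ± 0.18 (SE). In the circadian clock (17 genes, median 0.08 under HF and -0.08 under LF), *PER3* gave 0.20 ± 0.10 (SE). Proteasome subunits (39 genes) and cytosolic ribosomal proteins (59 genes) had medians of 0.02 and -0.01, with *PSMB6*, *PSMA4*, *RPL14* and *RPS23* at 0.19, -0.24, 0.19 and 0.07. Among 30 chaperones and genes of the unfolded protein response (median 0.04), the small heat shock protein *CRYAB* gave 0.68 ± 0.23 and *HERPUD1* 0.18 ± 0.12 (SE).

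Lists of dividing cells, matrix and macrophages had negative medians. Among 31 genes of DNA replication and mitosis (median -0.16, 25 negative), *WDHD1*, *GINS2* and 1 other had a raw p under 0.05, *GINS2* giving -0.35 ± 0.12 (SE). Among 35 extracellular matrix genes (median -0.07, 28 negative), tenascin, *TNC*, and elastin, *ELN*, gave -0.81 ± 0.35 and -0.55 ± 0.27 (SE). Among 26 macrophage and complement markers (median -0.15, 22 negative), *ARRB2* and *CYBA* gave -0.23 ± 0.12 and -0.17 ± 0.11 (SE). The mean level of these 26 markers ranged from 0.75 to 1.98 in low RFI and from 0.95 to 2.03 in high RFI pigs, and the ranges overlapped almost fully. In innate receptors and chemokines (46 genes, median -0.02), the costimulatory receptor *CD40* gave -0.50 ± 0.18 (SE), opposite in sign to *TRAF6*. In interferon response and antigen presentation (40 genes, median 0.03), *SLA-2* and *CXCL10* gave -0.30 ± 0.17 and -0.53 ± 0.40 (SE), and no member had a raw p under 0.05.

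**Figure D4:**
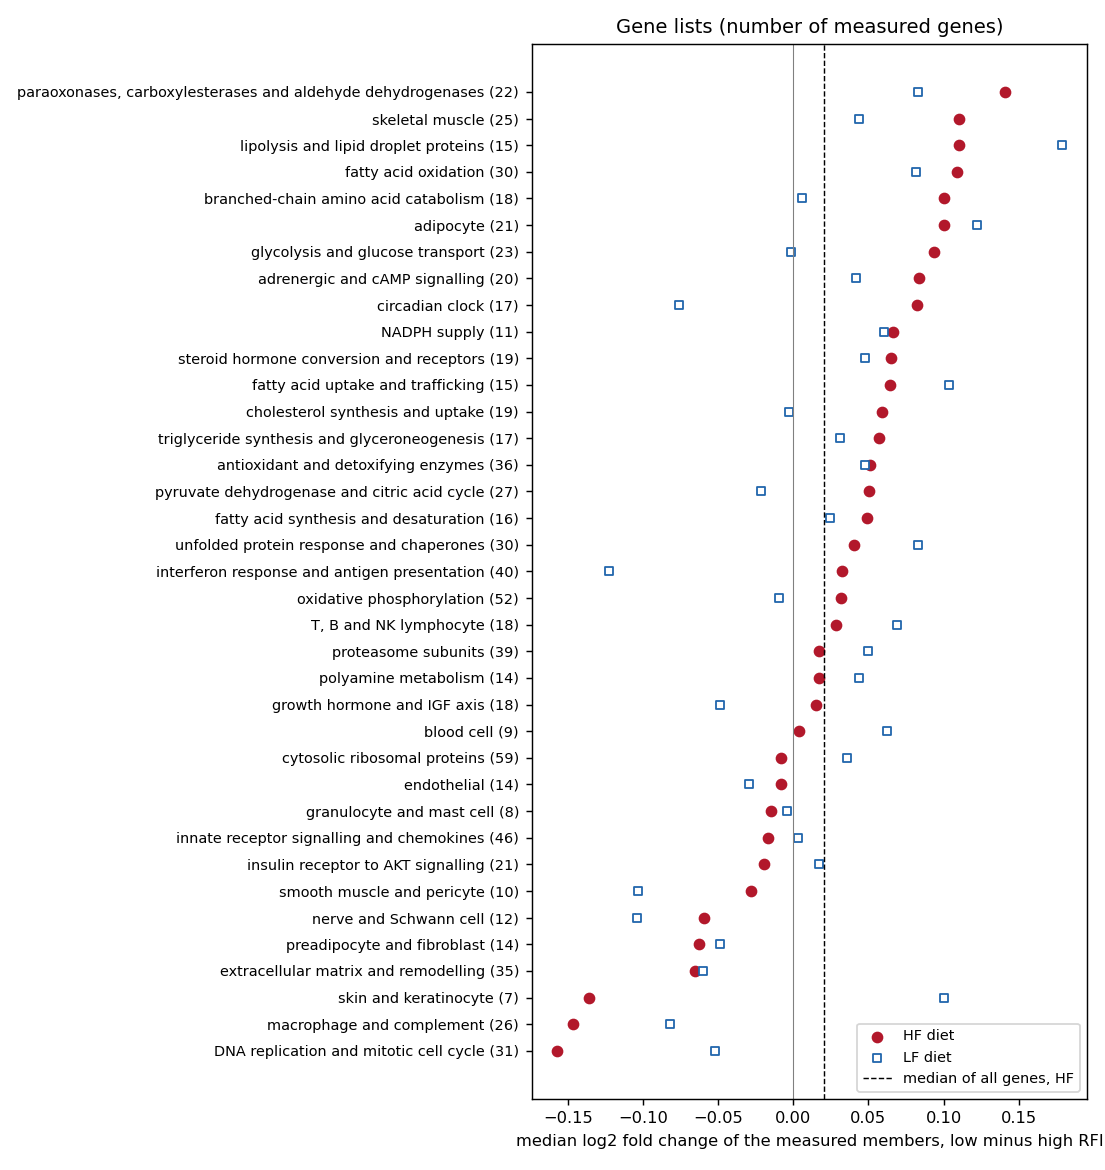
For each of the 37 gene lists, with its number of measured genes, the median log2 fold change (low minus high RFI) of its members is shown under the HF diet (filled circles) and the LF diet (open squares); the dashed line is the median of all genes under HF, 0.02. Under HF, all list medians lie between -0.16 and 0.14.

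The SCAT sample can hold several cell types, and markers of each were examined. The mean level of the 21 adipocyte markers was 5.87 ± 0.13 (SD, n = 12; range 5.65 to 6.13) in low RFI and 5.79 ± 0.15 (range 5.58 to 6.13) in high RFI pigs, with a list median of 0.10, 17 of 21 positive and *GPD1* and *CD36* at 0.15 and 0.15. The preadipocyte and fibroblast list had a median of -0.06, with *ENG* and *CD34* at -0.21 and -0.15. The endothelial list had a median of -0.01, with *CDH5* and *TIE1* at 0.27 and -0.13, and the smooth muscle and pericyte list -0.03, with *MYH11* and *TAGLN* at 0.20 and -0.11. The lymphocyte list had a median of 0.03, with *CD247* and *GZMB* at 0.20 and 0.19, and the granulocyte and mast cell list -0.02, with *S100A8* and *HDC* at -0.39 and 0.49. *NEB* of skeletal muscle gave 0.69, and 0.55 ± 0.32 (SE) without the low RFI replicate 8. The nerve and Schwann cell list had a median of -0.06 with 3 of 12 members (25.0%) at a raw p under 0.05, *CRYAB* being positive (0.68) and 2 negative, among them the nerve growth factor receptor *NGFR* (-0.58). The blood cell list had a median of 0.00400, with 5 of 9 members positive and *AHSP* and *SLC4A1* at -0.51 and -0.18. None of these genes was called.

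Of the 21 skin markers listed, 7 were kept, with a median of -0.14. Their mean level was 0.34 in the high RFI replicate 5 and at most -1.91 in the other high RFI pigs, and it ranged from -2.94 to -1.70 in low RFI pigs. The keratinocyte genes *KRT17*, which passed the filter through 1 line only, and *DSP* gave -0.60 and -0.59 with this array and -0.39 ± 0.35 and -0.04 ± 0.50 (SE) without it. Without it 2 probes were called under the HF diet, those of *SLC48A1* and A_72_P305509, and *SLC48A1* remained the only gene called.

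The leading axes of variation among the 24 HF arrays were set beside line. The first principal component (18.5% of the variance) differed by 0.19 pooled SD between lines (permutation test, adjusted p = 0.664), and scan date accounted for 54.9% of it. The second (8.40%) gave an adjusted p of 0.664 by the same permutation test. The third (7.15%) differed by 1.58 pooled SD between lines (permutation test, adjusted p = 0.00246), while array position accounted for 44.6% and slide for 17.3% of it. With quantile normalization, another background correction or another filter on dim probes, the third component no longer separated the lines, whereas with 75th percentile scaling it did (1.35 pooled SD; permutation test, adjusted p = 0.0106). The part of position in this component was not tested.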

How the data were processed

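SCAT RNA of 48 pigs was hybridised to Agilent porcine arrays. Per the labels and file headers, the authors extracted, with Feature Extraction 10.7.3.1, the background-subtracted intensity of each spot (processed signal), together with mean, median and local background intensity. They also deposited a table of log2 signals centred with R 2.10.0, used here as an alternative. The genome build was not given in the sources used here.

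From the deposited intensity values, log2 was taken, outlier spots were set to missing and control spots left out. A probe was kept if 9 or more arrays in 1 of the groups of 12 flagged it as well above background (44356 of 60305 probes), and the median of each array was subtracted. The rule for the comparison was followed with the filter over all 4 groups. Gene names came from the array files and from reference tables: 27376 probes had a name, and antisense or unmatched probes stayed unnamed. The brightest probe stood for a gene.

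A model of the 4 group means was fitted to all 48 arrays with limma 3.58.1 (R 4.3.3; intensity trend, two-sided, BH adjustment); calls used the study's cut-offs. The half-slide, which each replicate number marks, was not in this model and was added as a block in an alternative. Permutation tests used 100000 resamples and did not use the half-slides. The script was tested on simulated data. The number of arrays limits the precision. The members and lists were chosen with earlier results of these data known. Named genes were the 12 per direction with the largest change among calls, filled up by smallest raw p, and the called or else 2 leading members of each list. Some leading list members are not reported here.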

Additional observations from a re-analysis of the deposited data

How the results depend on the processing

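*SLC48A1* was called in 22 of 24 alternatives, with differences from 0.74 to 0.86; the exceptions were the scan dates taken alone. The number of probes called under the HF diet was 5 as reported, 15 with only the HF arrays, 21 with slide, 13 with scan date and 0 with array position as a block (1805 at a raw p under 0.05 by limma), 46 with array weights, and 8 with the share of probes above background as a covariate. It was 9 on the first and 0 on the second scan date (728 at a raw p under 0.05), 2 with median signals without background subtraction, 3 in the deposited table and 2 with no filter. Genes called (1 as reported) were 5, 4, 4, 2 and 11 with only the HF arrays, slide, scan date, position and weights, 12 and 0 on the first and second scan dates (156 at a raw p under 0.05 on the second), and 2 with the study's unmoderated analysis of variance, without intensity trend, with normexp background, with median signals and in the deposited table. With each of the 24 HF arrays left out in turn, a choice made after seeing the data, 2 to 45 probes and 1 to 8 genes were called. The most were called without the low RFI replicate 7 (45 probes, 2 genes) and the high RFI replicate 9 (39 probes, 8 genes). It was 2 probes without the low RFI replicate 1, 4, 5 or 10 or the high RFI replicate 5, 8 or 11. A gene was called lower in low RFI pigs in 2 of these fits, without the high RFI replicate 9 or 12, as were 5 of the 12 genes on the first scan date and 1 of the 11 with array weights. Without the high RFI replicate 7, which stood apart most, it was 9 probes and 3 genes.

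Genes called under the LF diet (7) were 13 with slide, 16 with scan date and 0 with position as a block (503 at a raw p under 0.05), 68 with weights, 4 with the covariate, 0 on the second scan date and with the unmoderated analysis of variance (703 and 708 at a raw p under 0.05), 3 at an adjusted p under 0.05, with normexp background, with median signals, with no filter and with the mean of all probes, and 2 in the deposited table and with half-slide and position as blocks. The difference between diets called 0 genes in all of these fits.

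The labels do not say that replicate numbers pair the pigs, but in the array files each number is a half-slide with 1 array of each group, and so a layout block. Correlations of same-numbered HF pigs ran from -0.19 to 0.28, 9 of 12 being over 0.1, against a median of -0.04 for differently numbered ones, and 2 of 12 low RFI arrays correlated best with their own number. With the replicate number, that is the half-slide, as a block, 63 probes and 17 genes were called under the HF diet (14 higher and 3, *OAZ3*, *NHEJ1* and *WDHD1*, lower in low RFI pigs), and 21 genes under the LF diet. The 14 higher included *UNC45B*, kept only through the low RFI groups, and both names of *TMEM260*. With position added to the half-slide block it was 4 probes and 5 genes. The third component differed by -0.18 pooled SD with quantile normalization, -0.43 with normexp, -0.018 with median signals, 0.038 with probes above background on all arrays and 0.34 with no filter. In the last 2 of these the second component gave 0.094 and 0.31, against -0.18 as reported.

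None of the 24 leading genes changed sign. Of the list genes named, 6 did in 1 alternative each: *STARD4* (0.064), *INSR* (-0.00471), *S100A8* (0.18) and *TAGLN* (0.0060) on the second scan date, *CXCL10* (0.037) on the first, and *RPS23* (-0.00272) with the mean of all probes. The cause of these changes was not tested. Dim probes, *UNC45B* and A_72_P751297 among them, were limited by signal over background.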
